A study of Bos taurus with 16 samples.

Results

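The genes described here act in apoptosis, the programmed cell death by which most ovarian follicles regress (atresia). A list of 30 genes was followed, chosen by name for their place in the death pathways or as markers of stressed and regressing follicles. RefSeq transcripts of 26 of them occurred among the 20629 genes and unnamed transcripts of the series. No accession matched BBC3, PMAIP1, BMF or BIRC2, which were not analysed here. The gene table gives BIRC2 as a synonym of BIRC3.

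The 16 libraries were made from granulosa cells, the somatic cells around the oocyte, aspirated from the dominant follicle of lactating Holstein cows 63 ± 3 days after calving. Of these, 7 are labelled treatment and 9 control. All the cows had the same synchronisation scheme, and the follicle was aspirated just before a second dose of gonadotropin-releasing hormone. The series title speaks of uterine disease that had resolved, but the labels do not say what treatment stands for. The cow behind each library is not named, so p-values measure the spread between libraries only. Within the cohort of 45 cows, those with metritis received the antibiotic ceftiofur, and no label says which libraries come from such cows.

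Apoptosis runs along 2 connected routes. In the mitochondrial route, BH3-only proteins sense damage and either block the survival proteins of the BCL2 family or activate BAX and BAK1, which open the outer mitochondrial membrane. Cytochrome c then leaks out, joins APAF1 and activates CASP9. In the death receptor route, ligands such as FASLG and tumour necrosis factor bind receptors that recruit FADD and CASP8, while inhibitor of apoptosis proteins hold caspases back. In cattle, as in other mammals, the loss of granulosa cells by apoptosis is a main feature of follicles in atresia, and falling aromatase is one of its classical signs.

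The tissue field of all the libraries reads blood, and the markers set them into 2 kinds. INHA, the alpha subunit of the granulosa hormone inhibin, lay between 1759 and 3041 CPM in 9 libraries, called granulosa-rich, and between 0.404 and 111 CPM in 7, called leukocyte-rich. CPM is a gene's count after scaling to the transcript total of its library. No library lay between 200 and 1000 CPM. CD14, a monocyte receptor, lay between 5.32 and 332 CPM in granulosa-rich libraries and between 1859 and 4031 CPM in leukocyte-rich ones, where the label granulosa cells goes against the markers. Granulosa-rich were treatment replicates 4, 5, 6 and 7 and control replicates 2, 3, 4, 7 and 8. Leukocyte-rich were treatment replicates 1, 2 and 3 and control replicates 1, 5, 6 and 9. These kinds were read from the data and are not groups of the study, so the kinds are described without a test. Libraries held 8111862 to 14348753 counts, and 3 counts correspond to 0.212 to 0.375 CPM. Treatment replicate 5 had the fewest features with a count (11395, against 11803 to 15323 in the other 15 libraries). In bulk RNA, fewer cells of a type and less RNA per cell cannot be told apart. CPM is not divided by transcript length, so levels are compared between libraries and not between genes.

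Some of the 26 genes lay apart between the kinds of library. Of the 24 that passed the filter on low counts, 5 were lower in every granulosa-rich library than in every leukocyte-rich one, namely BAK1, BCL2, CASP8, RIPK1 and TNFRSF1A. The same held for 11.6% of all features tested. The last 3 of these genes act in the death receptor route. GADD45B was the only listed gene higher in every granulosa-rich library (1 of 24, against 6.1% of all features). The other 18 overlapped between the kinds. The summed CPM of 8 monocyte and macrophage markers lay between 17.4 and 1264 in granulosa-rich libraries and between 6826 and 11046 in leukocyte-rich libraries, and the part of these cells in the levels was not tested. A gene can pass the filter through the kind in which it is high, so these counts describe the measured genes only. The plot of all libraries shows the split at the thick line.

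**Figure D1:**
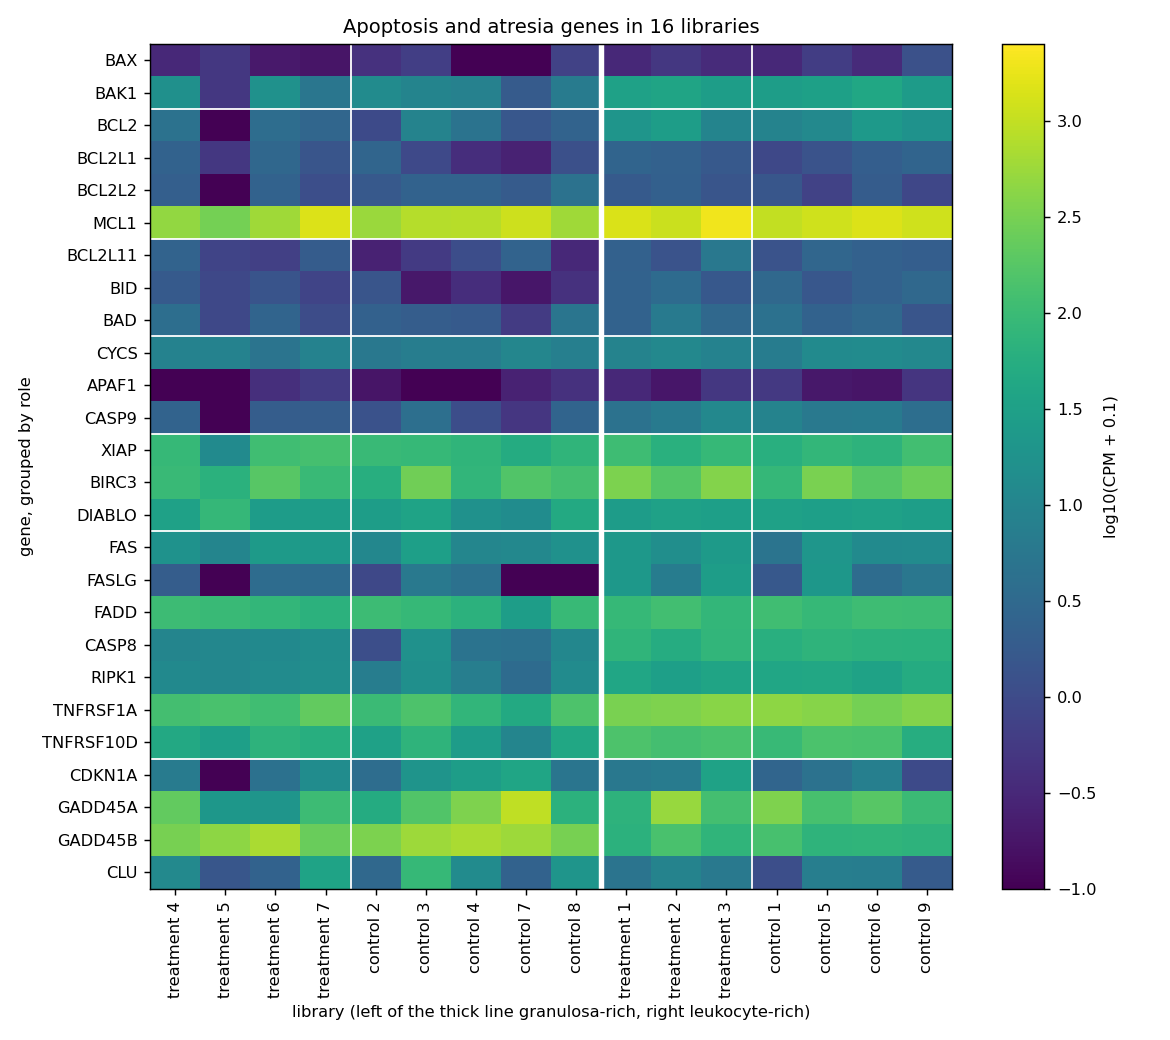
Level of the 26 genes (rows, grouped by role) in the 16 libraries (columns), as log10(CPM + 0.1). Libraries left of the thick line are granulosa-rich and those right of it leukocyte-rich, with treatment left of control in each. CASP8, RIPK1 and BAK1 are brighter (higher) right of the line and GADD45B is brighter left of it; BAX and APAF1 are dark throughout.

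Among the effectors, BAK1 had counts in every library and BAX close to none. BAK1 lay between 0.407 and 16.7 CPM with a median of 8.42 in granulosa-rich libraries, and between 25.9 and 41.5 CPM with a median of 32.2 in leukocyte-rich libraries. The lowest value, 4 counts, was that of treatment replicate 5. BAX was represented by 1 predicted transcript with at most 9 counts in any library, near the counting limit, so its level could not be measured with any precision. Why it had so few counts was not tested.

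Of the survival proteins, BCL2 alone lay apart between the kinds. BCL2, the founding member, lay between 0 and 9.05 CPM with a median of 2.75 in granulosa-rich libraries, and between 9.06 and 28.0 CPM with a median of 17.7 in leukocyte-rich libraries. The 2 ranges only just failed to touch, since control replicate 3 was at 9.05 CPM and control replicate 1 at 9.06 CPM. Treatment replicate 5 had 0 counts of BCL2, which allows up to 0.305 CPM. MCL1, a short-lived survival protein, overlapped between the kinds, with a median of 591 CPM (301 to 1482) in granulosa-rich libraries and 1214 CPM (1008 to 2041) in leukocyte-rich libraries. Here 2 granulosa-rich libraries reached the range of the leukocyte-rich ones, treatment replicate 7 at 1482 CPM and control replicate 7 at 1161 CPM. BCL2L1 (BCL-X) had at most 33 counts in a library, with a median of 1.08 CPM (0.162 to 2.87) in granulosa-rich libraries and 1.94 CPM (0.811 to 2.56) in leukocyte-rich libraries. BCL2L2 (BCL-W) had at most 42 counts, with a median of 2.09 CPM (0 to 4.53) in granulosa-rich libraries and 1.40 CPM (0.629 to 2.13) in leukocyte-rich libraries. Both overlapped.

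The measured BH3-only genes were all low in counts. BCL2L11 (BIM), which binds every survival protein, had a median of 0.712 CPM (0.159 to 2.43) in granulosa-rich libraries and 2.18 CPM (1.23 to 5.74) in leukocyte-rich libraries. BID, which links death receptors to mitochondria once CASP8 has cut it, had a median of 0.708 CPM (0.0811 to 1.65) in granulosa-rich libraries and 2.34 CPM (1.44 to 3.36) in leukocyte-rich libraries. BAD, held inactive by growth factor signals, had a median of 1.85 CPM (0.486 to 4.96) in granulosa-rich libraries and 2.91 CPM (1.37 to 6.47) in leukocyte-rich libraries. All 3 ranges overlapped.

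For the apoptosome, CYCS (cytochrome c, also an electron carrier of respiration) varied least of the genes tested among granulosa-rich libraries. It lay between 4.85 and 10.4 CPM with a median of 7.88 in granulosa-rich libraries, and between 7.00 and 12.9 CPM with a median of 11.1 in leukocyte-rich libraries. CASP9, the caspase that the apoptosome activates, lay between 0 and 3.88 CPM in granulosa-rich libraries and between 3.75 and 11.3 CPM in leukocyte-rich libraries. APAF1, the scaffold, had at most 6 counts in any library, too few for a level.

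The inhibitors of apoptosis overlapped between the kinds. XIAP, which binds caspases directly, had a median of 87.5 CPM (12.6 to 126) in granulosa-rich libraries and 81.7 CPM (59.6 to 116) in leukocyte-rich libraries. BIRC3, a ubiquitin ligase that NF-kB induces and that keeps tumour necrosis factor signalling on the survival side, had a median of 95.6 CPM (58.4 to 282) in granulosa-rich libraries and 259 CPM (85.4 to 380) in leukocyte-rich libraries. DIABLO, a mitochondrial protein that frees caspases from XIAP once released, had a median of 28.2 CPM (13.8 to 85.9) in granulosa-rich libraries and 30.5 CPM (26.6 to 33.2) in leukocyte-rich libraries. The value of 85.9 CPM was that of treatment replicate 5, against at most 47.6 CPM in the other granulosa-rich libraries.

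Among the death receptor genes, CASP8, TNFRSF1A and RIPK1 are those already counted as lying apart. CASP8, the initiator caspase of this route, lay between 1.03 and 16.99 CPM with a median of 10.8 in granulosa-rich libraries, and between 53.7 and 77.7 CPM with a median of 66.2 in leukocyte-rich libraries. TNFRSF1A, the main receptor of tumour necrosis factor, lay between 46.5 and 220 CPM with a median of 123 in granulosa-rich libraries, and between 304 and 445 CPM with a median of 386 in leukocyte-rich libraries. RIPK1, a kinase that decides between survival and death below that receptor, lay between 3.32 and 15.4 CPM with a median of 12.1 in granulosa-rich libraries, and between 30.5 and 50.7 CPM with a median of 39.8 in leukocyte-rich libraries. The ratio of the medians, granulosa-rich over leukocyte-rich, was 0.163 for CASP8, 0.319 for TNFRSF1A and 0.304 for RIPK1. TNFRSF10D, in humans a decoy receptor of the ligand TRAIL, had a median of 41.4 CPM (9.89 to 73.9) in granulosa-rich libraries and 138 CPM (54.6 to 150) in leukocyte-rich libraries.

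The other genes of the route overlapped between the kinds. FADD, the adaptor between receptor and caspase, had a median of 89.2 CPM (28.4 to 104) in granulosa-rich libraries and 104 CPM (81.7 to 116) in leukocyte-rich libraries. FAS, the receptor of FASLG, had a median of 16.6 CPM (9.86 to 30.7) in granulosa-rich libraries and 14.8 CPM (4.86 to 25.1) in leukocyte-rich libraries. FASLG, which cytotoxic T cells and natural killer cells make, lay between 0 and 6.002 CPM in granulosa-rich libraries and between 1.55 and 28.1 CPM in leukocyte-rich libraries. The 3 libraries with FASLG above 20 CPM were treatment replicates 1 and 3 and control replicate 5, at 21.8, 28.1 and 21.2 CPM. In these 3 the summed CPM of 7 T and natural killer cell markers was 830, 1001 and 927, against 114 to 360 in the other 4 leukocyte-rich libraries; the part of these cells in the value was not tested.

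Of the stress and atresia genes, GADD45B stood on the granulosa side. GADD45B, a stress and cytokine response gene, lay between 245 and 701 CPM with a median of 453 in granulosa-rich libraries, and between 66.7 and 137 CPM with a median of 74.4 in leukocyte-rich libraries, a ratio of medians of 6.09. Its relative GADD45A, induced by DNA damage and other stresses, overlapped fully, with a median of 105 CPM (19.6 to 935) in granulosa-rich libraries and 131 CPM (70.5 to 516) in leukocyte-rich libraries. CDKN1A, an inhibitor of cyclin-dependent kinases and a classical p53 target, had a median of 6.59 CPM (0 to 37.9) in granulosa-rich libraries and 5.67 CPM (0.874 to 33.9) in leukocyte-rich libraries. CLU (clusterin), a secreted chaperone that rises in many regressing tissues, had a median of 11.6 CPM (1.42 to 88.0) in granulosa-rich libraries and 5.91 CPM (1.03 to 9.34) in leukocyte-rich libraries.

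**Figure D2:**
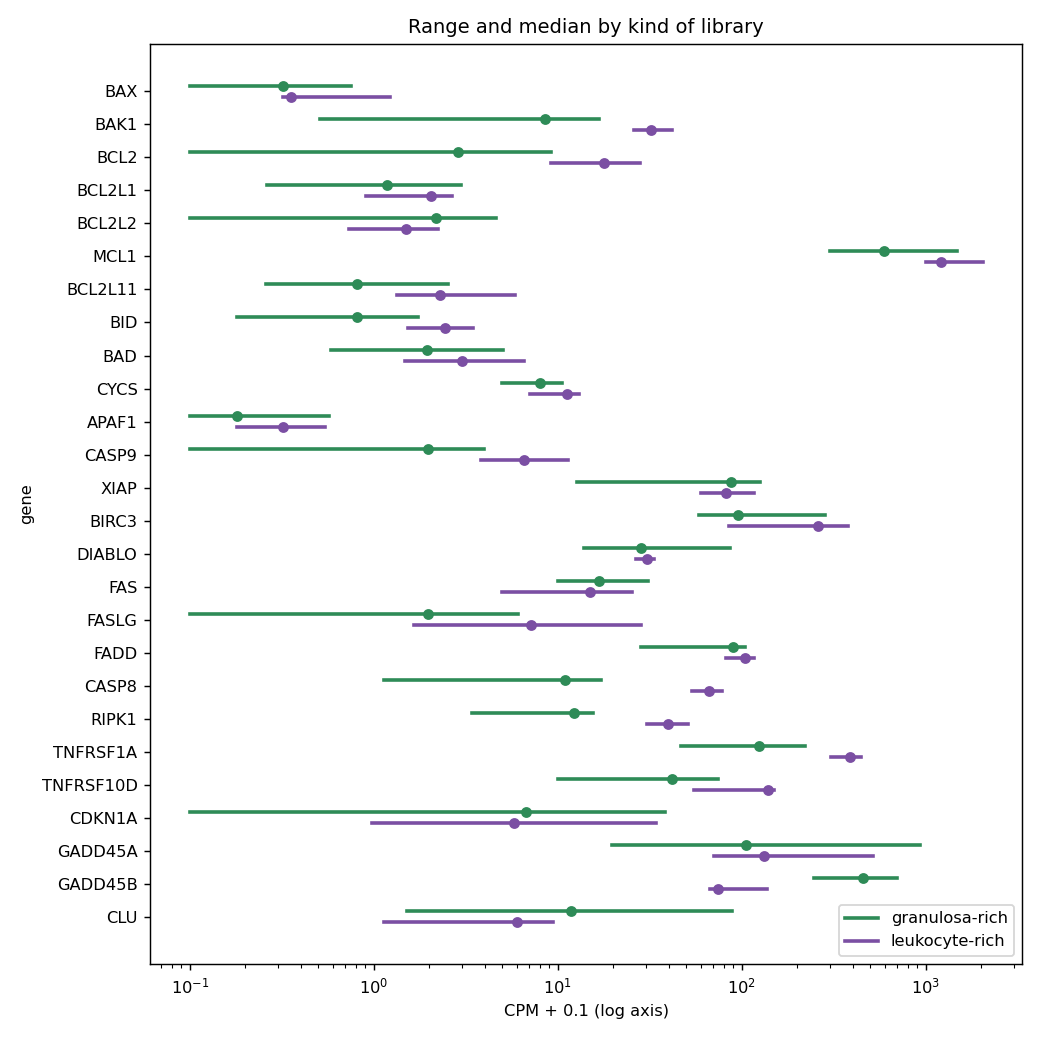
Range (line) and median (point) of the CPM of each gene in the 9 granulosa-rich and the 7 leukocyte-rich libraries, with 0.1 added for the log axis. The lines of BAK1, BCL2, CASP8, RIPK1 and TNFRSF1A lie apart with granulosa-rich lower, that of GADD45B lies apart with granulosa-rich higher, and the rest overlap.

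The levels also varied more among granulosa-rich libraries than among leukocyte-rich ones. The median SD of log2(CPM + 0.5) over the 24 genes was 0.84 in granulosa-rich libraries and 0.45 in leukocyte-rich libraries, and 22 of 24 genes had the larger SD in the granulosa-rich kind. So did 8271 of all 9653 features, where the medians were 0.79 in granulosa-rich and 0.40 in leukocyte-rich libraries. Of the genes that passed the filter in these 9 libraries, CLU, CDKN1A and GADD45A had the largest SD (1.91, 1.89 and 1.83), and CYCS the smallest (0.32).

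Some library is always the highest or the lowest, so the counts per granulosa-rich library are given beside the share of all features. Control replicate 3 was the highest of the 9 for 9 of 23 genes, namely BCL2, CASP9, BIRC3, FAS, FASLG, CASP8, RIPK1, TNFRSF10D and CLU, against 14.8% of all features, and the lowest for 0 of 23 (2.94% of all features). In control replicate 3 the summed pan-leukocyte markers (1211 CPM) and the summed B cell markers (2680 CPM) were the highest of the 9 as well. The part of such cells in the 9 genes was not tested. Control replicate 7 was the highest for BCL2L11, CYCS, CDKN1A and GADD45A, 4 of 23 genes against 4.27% of all features. It was the lowest for 7 of 23, close to the 29.6% of all features. Treatment replicate 5 was the lowest for 9 of 23 genes, against 28.5% of all features, and the highest for DIABLO only (1 of 23, against 14.7%). These 3 libraries were picked because of their values. The ranks are by CPM, and the factors of TMM scaling differed between these libraries. Over all 16 libraries they were 1.11 in control replicate 3, 0.614 in control replicate 7 and 0.807 in treatment replicate 5. With these factors BIRC3 was higher in control replicate 7 than in control replicate 3, and RIPK1 was higher in treatment replicate 7. The fit of granulosa-rich libraries alone used 1.13, 0.687 and 0.895, with which BIRC3 stays higher in control replicate 3.

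Treatment was then compared with control over all 16 libraries, the comparison the labels imply. Of the 24 genes 0 passed an adjusted p of 0.05 in edgeR's quasi-likelihood test over the 9653 features tested, as did 0% of all features. With SEs as wide as those given below, this does not show that the levels were equal. With an unadjusted p under 0.05 there were 0 of 24 by edgeR, against 1.69% of all features, and 0 by DESeq2 and limma-voom, which also called 0 of the 24. Fitted values were higher in treatment for 15 genes (62.5%, against 52.1% of all features) and lower for 9. The median log2 fold change was 0.03, against 0.01 over all features.

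GADD45A had the lowest p of the list. It was at 70.5, 516, 122, 216, 21.5, 19.6 and 105 CPM in treatment replicates 1 to 7, and at 360, 50.3, 162, 360, 131, 180, 935, 68.4 and 98.2 CPM in control replicates 1 to 9. The groups overlapped, with the highest library in control and the 2 lowest in treatment. The log2 fold change was -1.22 ± 0.79 (SE; edgeR, adjusted p = 0.9999, unadjusted 0.139). It was -0.35 without control replicate 7 and -1.90 without treatment replicate 2. BCL2L2 was at -0.53 ± 0.57, at -0.29 without control replicate 8, at -0.31 without treatment replicate 5 and at -0.65 without treatment replicate 6. BCL2L1 was at 0.51 ± 0.47 and FAS at 0.35 ± 0.31 (log2 fold change ± SE). FASLG was at 0.96 ± 1.07, at 0.34 without treatment replicate 3 and at 1.74 without control replicate 5. DIABLO was at 0.39 ± 0.32, at -0.11 without treatment replicate 5 and at 0.50 without control replicate 8. With library kind added as a covariate 0 of the 24 passed as well (lowest adjusted p = 0.9993), and GADD45A was at -1.17.

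Within the granulosa-rich libraries, 4 treatment libraries were set against 5 control libraries. Of the 23 genes tested 0 passed an adjusted p of 0.05 (0% of the 9272 features), and 0 had an unadjusted p under 0.05 with edgeR, against 4.67% of all features, where DESeq2 gave 1 (GADD45A) and limma-voom 0. Fitted values were higher in treatment for 10 genes (43.5%, against 52.9% of all features) and lower for 13. The median log2 fold change was -0.18, against 0.04 over all features. No gene of the list separated the groups completely, in which treatment lay above control for 1.18% of all features and below it for 0.55%. DESeq2 called 27 features in these libraries, 0 of them on the list, and limma-voom called 0.

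The 2 genes with the lowest p were the growth arrest genes GADD45A and CDKN1A, both with lower fitted values in treatment. GADD45A was at 216, 21.5, 19.6 and 105 CPM in treatment replicates 4, 5, 6 and 7, and at 50.3, 162, 360, 935 and 68.4 CPM in control replicates 2, 3, 4, 7 and 8. The 2 lowest libraries were treatment and the 2 highest control, while the middle overlapped. Its log2 fold change was -2.32 ± 1.08 (SE; edgeR, adjusted p = 0.983, unadjusted 0.0554), -1.04 without control replicate 7 and -3.13 without treatment replicate 4.

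CDKN1A was at 6.59, 0, 4.25 and 13.8 CPM in treatment replicates 4, 5, 6 and 7. In control replicates 2, 3, 4, 7 and 8 it was at 3.57, 18.7, 28.5, 37.9 and 4.96 CPM. The 3 highest libraries were control, and the 2 other control libraries lay among the treatment ones. Its log2 fold change was -2.01 ± 1.17 (SE; edgeR, adjusted p = 0.983, unadjusted 0.115), -1.35 without control replicate 7 and -2.85 without treatment replicate 7. Both genes ordered the 5 control libraries in the same way, with control replicate 7 highest, then control replicates 4, 3, 8 and 2.

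**Figure D3:**
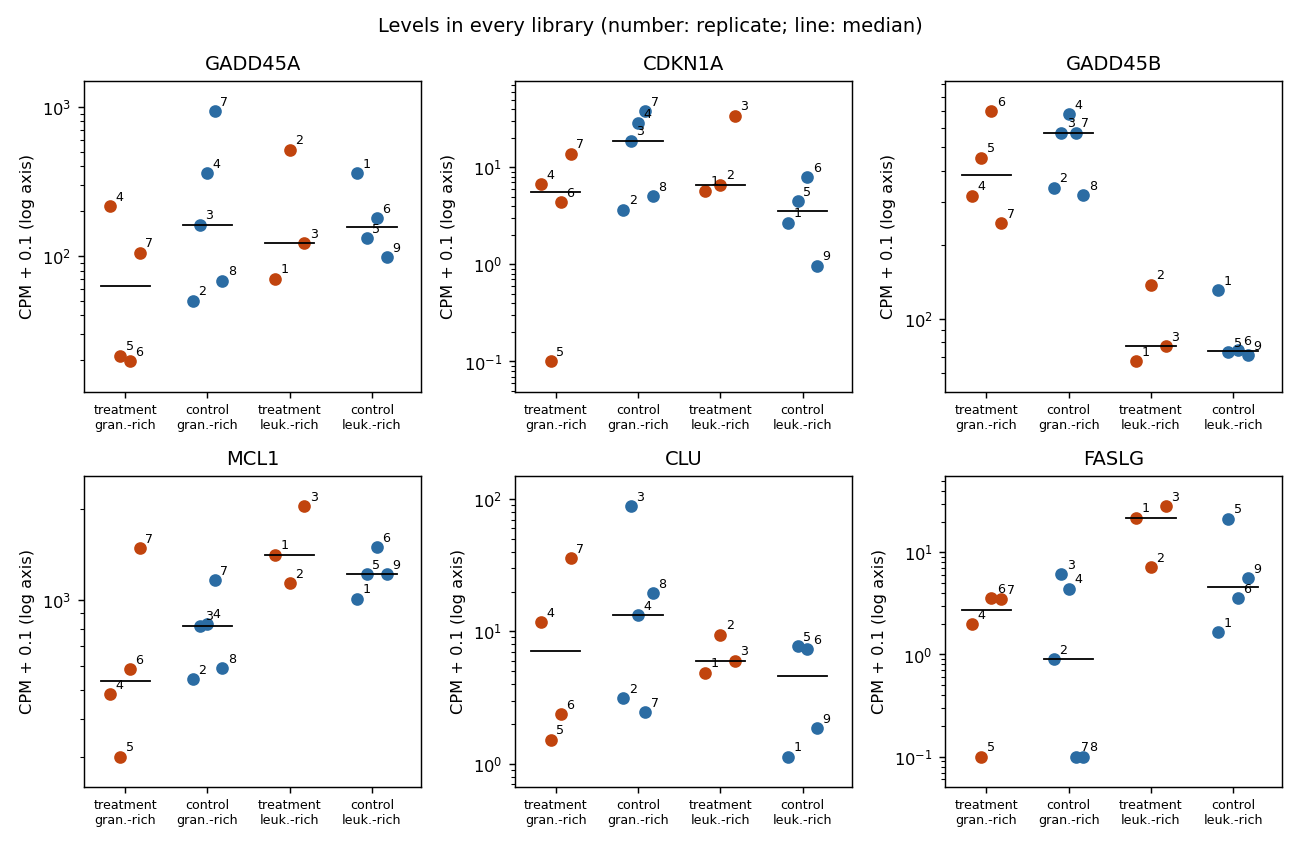
CPM of GADD45A, CDKN1A, GADD45B, MCL1, CLU and FASLG in every library, with 0.1 added for the log axis; numbers are replicates, lines are medians, and treatment stands left of control within each kind. Control replicate 7 tops GADD45A (935 CPM) and CDKN1A (37.9 CPM), treatment replicate 7 tops MCL1 among granulosa-rich libraries (1482 CPM), and GADD45B is at 245 CPM or more in the granulosa-rich libraries and at most 137 CPM in the others.

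The remaining named genes of this comparison differed less. TNFRSF1A was at 123, 139, 112 and 220 CPM in treatment replicates 4, 5, 6 and 7, and at 100.3, 149, 80.1, 46.5 and 148 CPM in control replicates 2, 3, 4, 7 and 8. The log2 fold change was 0.42 ± 0.30 (SE), 0.17 without treatment replicate 7 and 0.56 without treatment replicate 6. The summed monocyte and macrophage markers lay between 245 and 1264 CPM in these treatment libraries and between 17.4 and 549 CPM in these control libraries, and their part in the value was not tested. BIRC3 was at 95.6, 64.8, 178 and 94.5 CPM in the treatment libraries and at 58.4, 282, 79.0, 163 and 124 CPM in the control libraries. The highest and the lowest BIRC3 values were both control. Its log2 fold change was -0.60 ± 0.45, and -0.32 without control replicate 7 or -0.33 without control replicate 3. Without treatment replicate 6 the BIRC3 value was -0.89. BCL2L2 was at 2.09, 0, 2.27 and 1.02 CPM in the treatment libraries and at 1.59, 2.31, 2.33, 1.70 and 4.53 CPM in the control libraries. With 0 counts in treatment replicate 5, its log2 fold change was -1.12 ± 0.86, -0.72 without that library and -1.48 without treatment replicate 6. DIABLO was at 32.7, 85.9, 26.7 and 28.1 CPM in the treatment libraries and at 28.2, 35.5, 16.4, 13.8 and 47.6 CPM in the control libraries. Treatment replicate 5 held the highest DIABLO value and the other treatment libraries lay among the control ones. Its log2 fold change was 0.61 ± 0.49, -0.14 without treatment replicate 5 and 0.82 without control replicate 8.

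The core genes and the receptor FAS overlapped as well. BCL2 was at 4.40, 0, 3.66 and 2.75 CPM in treatment replicates 4, 5, 6 and 7, and at 0.873, 9.05, 4.67, 1.46 and 2.37 CPM in control replicates 2, 3, 4, 7 and 8. MCL1 was at 484, 301, 586 and 1482 CPM in the treatment libraries and at 544, 820, 830, 1161 and 591 CPM in the control libraries. Treatment held both the lowest 2 MCL1 values and the highest 1. FAS was at 17.6, 9.86, 25.0 and 24.1 CPM in the treatment libraries and at 10.9, 30.7, 10.3, 11.2 and 16.6 CPM in the control libraries. CYCS was at 8.79, 8.85, 4.85 and 8.89 CPM in the treatment libraries and at 5.79, 7.11, 7.14, 10.4 and 7.88 CPM in the control libraries. CLU was at 11.6, 1.42, 2.27 and 35.6 CPM in the treatment libraries and at 3.01, 88.0, 13.2, 2.35 and 19.4 CPM in the control libraries. None of these genes set the groups apart. BAX had 2, 4, 1 and 1 counts in the treatment libraries and 4, 6, 0, 0 and 6 counts in the control libraries.

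Within the leukocyte-rich libraries, 3 treatment libraries were set against 4 control libraries. The summed granulosa markers were at 5416, 224 and 140 CPM in treatment replicates 1, 2 and 3, against 137 to 336 CPM in the control libraries. The summed theca markers, which include collagens, were at 3336, 4942 and 102 CPM in these treatment libraries, against 351 to 1099 CPM in the control libraries. The part of such cells in the values was not tested. Of the 24 genes tested 0 passed an adjusted p of 0.05 (0% of the 9912 features), and 0 had an unadjusted p under 0.05 with edgeR, against 2.61% of all features, where DESeq2 gave 1 (CDKN1A) and limma-voom 0. Fitted values were higher in treatment for 18 genes (75%, against 51.1% of all features) and lower for 6. The median log2 fold change was 0.27, against 0.01 over all features. Complete separation was again found for 0 genes of the list, against 1.99% of all features with treatment above and 1.85% with treatment below. DESeq2 and limma-voom called 0 features in these libraries.

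CDKN1A had the lowest p in these libraries, with higher fitted values in treatment. It was at 5.67, 6.55 and 33.9 CPM in treatment replicates 1, 2 and 3, and at 2.58, 4.40, 7.83 and 0.874 CPM in control replicates 1, 5, 6 and 9. Treatment replicate 3 stood far above the rest, and control replicate 6 above the other treatment libraries. The log2 fold change was 2.00 ± 0.90 (SE; edgeR, adjusted p = 0.9996, unadjusted 0.0601), 2.60 without control replicate 6 and 0.56 without treatment replicate 3. That library also had the highest summed neutrophil markers of all (793 CPM, against at most 203 CPM in the other 15), whose part in the value was not tested.

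Both sides of the FAS system had higher fitted values in treatment, without passing. FAS was at 21.8, 14.8 and 25.1 CPM in treatment replicates 1, 2 and 3, and at 4.86, 20.7, 12.6 and 13.1 CPM in control replicates 1, 5, 6 and 9, a log2 fold change of 0.70 ± 0.46 (SE). FASLG was at 21.8, 7.05 and 28.1 CPM in the treatment libraries and at 1.55, 21.2, 3.47 and 5.50 CPM in the control libraries, a log2 fold change of 1.29 ± 0.90. The treatment libraries held the 2 highest values of each gene, and control replicate 5 came next. The summed T and natural killer cell markers were at 830, 354 and 1001 CPM in the treatment libraries and at 174, 927, 114 and 360 CPM in the control libraries. Without control replicate 1 the FAS value was 0.44, without treatment replicate 3 it was 0.46, and without treatment replicate 3 the FASLG value was 0.81. Without control replicate 5 the FAS value was 1.03 and the FASLG value 2.48.

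MCL1 was at 1411, 1132 and 2041 CPM in the treatment libraries and at 1008, 1213, 1491 and 1214 CPM in the control libraries, a log2 fold change of 0.33 ± 0.26 (SE) of -0.014 without treatment replicate 3 and of 0.52 without treatment replicate 2. RIPK1 was at 39.8, 30.5 and 36.7 CPM in the treatment libraries and at 40.4, 44.0, 33.9 and 50.7 CPM in the control libraries. The groups overlapped for both genes. RIPK1 had a log2 fold change of -0.24 ± 0.19, of -0.12 without treatment replicate 2 and of -0.33 without control replicate 6. BCL2L2 was at 0.56 ± 0.49, at 0.35 without control replicate 5 and at 0.85 without control replicate 6. CLU was at 4.78, 9.34 and 5.91 CPM in the treatment libraries and at 1.03, 7.63, 7.27 and 1.75 CPM in the control libraries, with overlap.

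**Figure D4:**
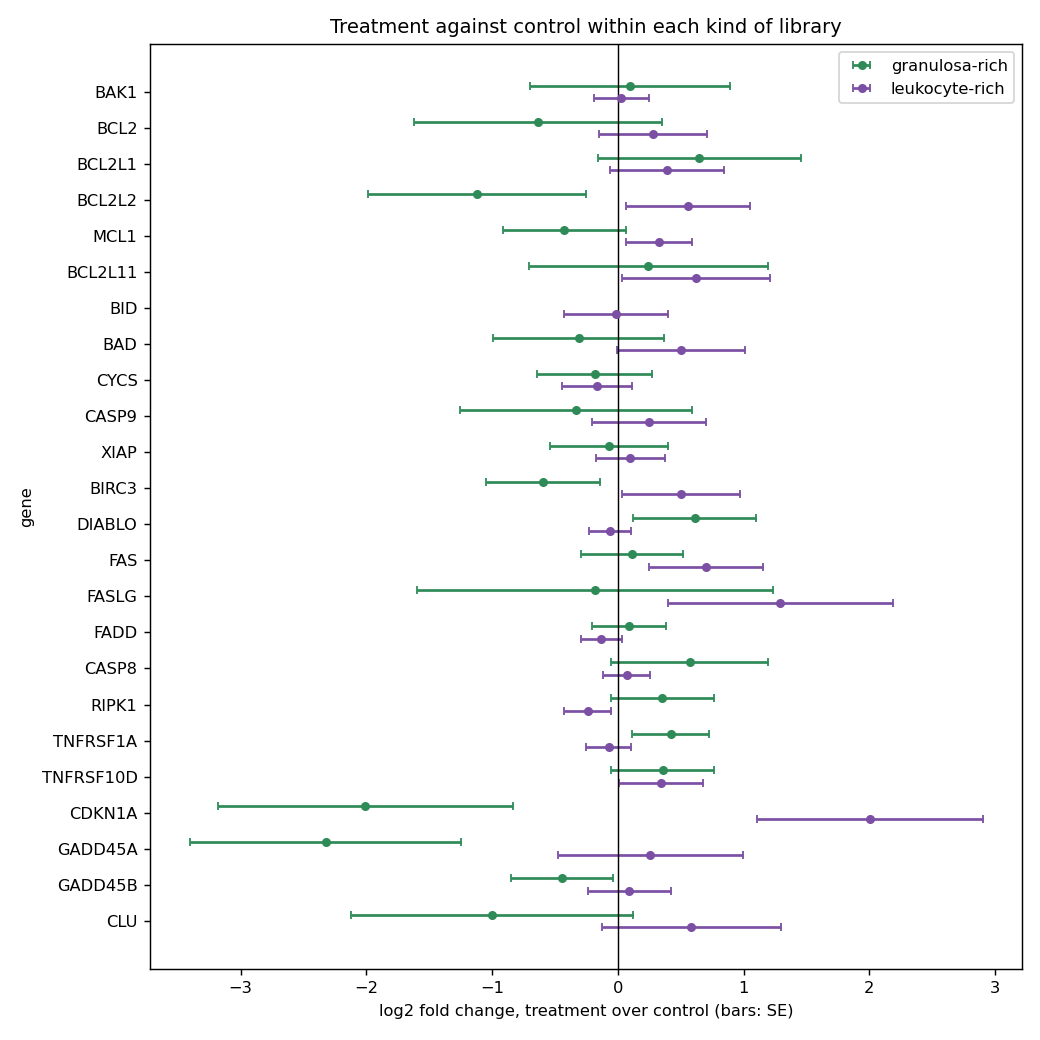
Fitted log2 fold change of treatment over control, with its SE, for each gene tested in granulosa-rich (4 against 5) and in leukocyte-rich libraries (3 against 4). CDKN1A lies at -2.01 in granulosa-rich and at 2.00 in leukocyte-rich libraries, and none of the points passed the test.

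An effect in 1 kind alone calls for a test of the difference, so the difference between the treatment effects was itself tested over all 16 libraries. CDKN1A had the lowest p of the list in this fit. Its opposite signs in the 2 kinds, seen above, come from the same libraries, so this p adds no separate evidence. For CDKN1A the effect in granulosa-rich libraries minus that in leukocyte-rich libraries was -4.04 ± 1.65 (SE) on the log2 scale, with an unadjusted p of 0.0272 and an adjusted p of 0.914 (edgeR's quasi-likelihood test), so it did not pass. The CDKN1A difference was -2.58 without treatment replicate 3 and -4.91 without treatment replicate 7. GADD45A was at -2.61 ± 1.47, at -1.28 without control replicate 7, at -1.39 without treatment replicate 2 and at -3.37 without treatment replicate 4. BCL2L2 was at -1.67 ± 1.04. Of the 24 genes 1 had an unadjusted p under 0.05, against 5.34% of all features, and 0 passed the adjusted threshold (0% of all features). DESeq2 called 19 features in this test, 0 of them on the list, and limma-voom called 0.

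Treatment replicate 7 was granulosa-rich by INHA (2395 CPM) but had the lowest aromatase of that kind. CYP19A1, which makes oestradiol, was at 276 CPM there, against 8439 to 28576 CPM in the other 8 granulosa-rich libraries. FSHR, the receptor of follicle-stimulating hormone, was at 110 CPM, against 361 to 543 CPM. CCND2, a cyclin of dividing granulosa cells, was at 234 CPM, against 358 to 692 CPM. INHBA, the beta A subunit of inhibin and activin, was at 10234 CPM, against 35444 to 66709 CPM. IGFBP5, a binding protein of insulin-like growth factors, lay inside the range of the others (18.3 CPM, against 2.54 to 249 CPM). So did INHA (against 1759 to 3041 CPM) and LHCGR (9.20 CPM, against 0.659 to 79.5 CPM). IGFBP2 (59.5 CPM, against 48.4 to 233 CPM) and GSN (67.4 CPM, against 7.54 to 125 CPM) lay inside as well. The library has no replicate of its own, so its values are described without a test.

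In that library the apoptosis genes showed a mixed picture. MCL1 (1482 CPM, against 301 to 1161 CPM in the other 8), XIAP (126 CPM, against 12.6 to 114 CPM) and TNFRSF1A (220 CPM, against 46.5 to 149 CPM) were each the highest of the 9. That is 3 of 23 genes, against 16.1% of all features. GADD45B was the lowest, at 245 CPM against 316 to 701 CPM, which is 1 of 23 genes, against 9.44% of all features. Both shares, 3 and 1 of 23, were under the background. These ranks are by CPM. After TMM scaling over all 16 libraries (factor 0.614 in control replicate 7 and 0.988 in treatment replicate 7) control replicate 7 was the higher of these 2 for MCL1. Treatment replicate 7 was then the highest of the 9 for RIPK1 instead, again 3 of 23 genes.

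The other genes that passed the filter lay inside the range of the other 8 libraries. CLU was at 35.6 CPM, 4.86 times the median of the other 8, and control replicate 3 alone was higher (88.0 CPM). BCL2L11 was at 1.81 CPM, 2.77 times that median, FAS at 24.1 CPM, 1.73 times, and CDKN1A at 13.8 CPM, 2.38 times. GADD45A was at 105 CPM, 0.912 times, CASP8 at 14.5 CPM, 1.41 times, and BAK1 at 5.19 CPM, 0.576 times. In all 14 of 23 genes (60.9%) lay above that median, against 52.2% of all features. The median ratio was 1.30, against 1.03 over all features. The summed epithelial markers of this library were at 1614 CPM, against at most 908 CPM in the other 8. Of the 4 markers KRT8 (582 CPM) and KRT18 (948 CPM) were above the others, while EPCAM (38.5 CPM, against up to 192 CPM) and CDH1 (45.3 CPM, against up to 73.5 CPM) lay inside their range. The summed endothelial markers were at 134 CPM, against at most 29.7 CPM, made up of VWF (36.7 CPM) and KDR (96.8 CPM), with PECAM1 and CDH5 at 0. Their part in these values was not tested.

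**Figure D5:**
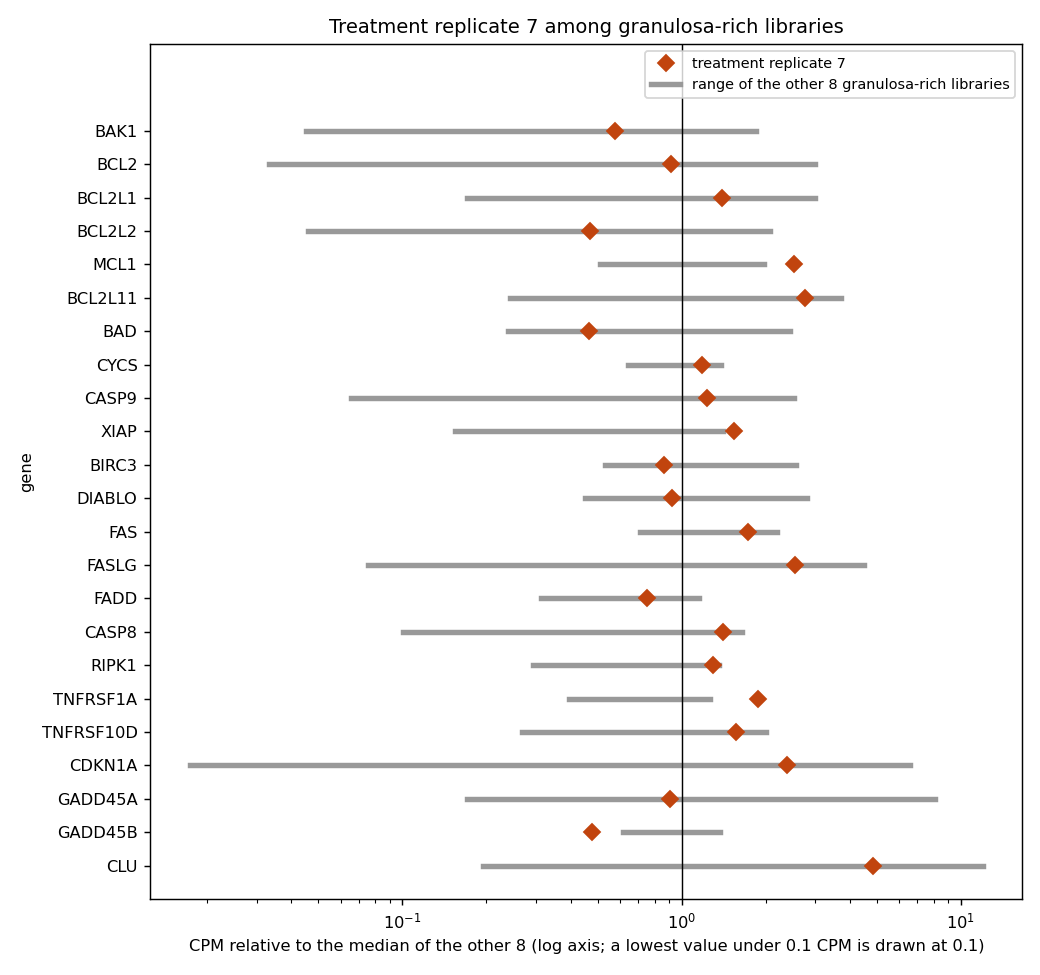
CPM of the 23 genes that passed the filter in treatment replicate 7 (diamond) and range of the other 8 granulosa-rich libraries (grey line), both divided by the median of those 8, on a log axis. MCL1, XIAP and TNFRSF1A lie beyond the upper end of the line, GADD45B beyond the lower end, and the rest inside.

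A wider list of 57 apoptosis genes, of which 46 occurred in the files, was read in the same way. In the comparison of treatment with control over all 16 libraries 0 of the 35 tested passed in either direction, with 19 fitted values higher and 16 lower in treatment. In granulosa-rich libraries 0 of 32 passed, with 20 higher and 12 lower, and in leukocyte-rich libraries 0 of 36 passed, with 17 higher and 19 lower. The shares of all features with higher fitted values in these 3 fits were 52.1%, 52.9% and 51.1%. With edgeR an unadjusted p under 0.05 was found for 0 of 35 genes over all 16 libraries, 1 of 32 in granulosa-rich and 2 of 36 in leukocyte-rich libraries, against 1.69%, 4.67% and 2.61% of all features. In granulosa-rich libraries 0 of 32 separated the groups completely, against 1.18% of all features with treatment above and 0.55% below. In leukocyte-rich libraries 1 of 36 (HTRA2) had treatment completely below control, against 1.85% of all features, and 0 above, against 1.99%. Between the kinds, 6 of 35 were lower in every granulosa-rich library, namely CASP4, TNFRSF1B, TNFRSF21, SESN1, DRAM1 and FOXO3, against 11.6% of all features, and 0 were higher in every one, against 6.1%. The receptor TNFRSF1B, the second receptor of tumour necrosis factor, had a median of 42.1 CPM in granulosa-rich libraries and 445 CPM in leukocyte-rich libraries.

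The genes of the wider list with the most counts were BNIP3L, BNIP3, BIRC5, TNFRSF1B, TNFRSF21 and VDAC2. BNIP3, a mitochondrial protein induced by low oxygen, was at -0.9996 ± 0.39 (log2 fold change ± SE, unadjusted p = 0.0276) in granulosa-rich libraries, where its relative BNIP3L was at -0.54 ± 0.35, and neither passed (edgeR, adjusted p = 0.983). BIRC5 (survivin), needed in cell division, was at 0.72 ± 0.56, TNFRSF1B at 0.62 ± 0.73, TNFRSF21 at 0.78 ± 0.80 and the mitochondrial channel VDAC2 at 0.10 ± 0.28 in the same libraries. In leukocyte-rich libraries TNF, the ligand of TNFRSF1A and TNFRSF1B, was at 3.04 ± 0.98 (unadjusted p = 0.0161) and the mitochondrial protease HTRA2 at -0.37 ± 0.16 (unadjusted p = 0.0484), and neither passed (adjusted p = 0.9996). TNF and HTRA2 were picked because of their values. TNF was low, with a median of 1.11 CPM (0.0898 to 8.11) in leukocyte-rich libraries, and did not pass the filter on low counts in the other fits. Its fold change was not repeated with single libraries left out.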

How the data were processed

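Poly(A) RNA of 16 bovine libraries was sequenced, per the labels' protocols. The kit keeps no strand, so overlapping and antisense genes cannot be told apart. The deposited files hold raw counts of reads per RefSeq accession made by the authors, 1 file per library. Cutadapt, Bowtie2 and SAMtools were used, per the submitters' processing notes; the sources used here give no build, annotation, versions or treatment of multiply mapped reads. Accessions not listed were taken as 0. The 133 genomic records were left out. Of 27173 transcript accessions 18973 matched a symbol in RefSeq's gene table of ARS-UCD2.0 with versions ignored, and counts were summed per gene. Symbols absent from that table or renamed were not traced.

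CPM used the library's transcript total. Treatment was compared with control by edgeR 4.0.16 (R 4.3.3; quasi-likelihood, robust, TMM scaling, filter on low counts by group, two-sided, Benjamini-Hochberg over all features, threshold 0.05). SE is the absolute log2 fold change over the root of the F statistic. The interaction fit held kind, group and both together. Alternatives were other scalings and filters, DESeq2 1.42.0, limma-voom (limma 3.58.1), the replicate number as a block, library kind as a covariate and each library left out. Tests were tried on simulated counts first. The list and the wider list were chosen with earlier results of these data known. Fold changes are given for the 6 genes with the lowest p in each fit (3 in the interaction fit). No 2 libraries were duplicates (highest correlation of log2 CPM 0.95). Limits drawn from 0 or 3 counts cover counting error only, while SE and p-values rest on the spread between libraries. No sequences are shown.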

Additional observations from a re-analysis of the deposited data

Results flagged for a closer look

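In groups of 4 to 10 libraries, a library was picked out when its gap to the nearest other was large for the range of its group on the log2 scale (Dixon's criterion). Of 72 groups of values 4 were picked out, where chance gives about 1 in 20. CYCS was at 4.85 CPM in treatment replicate 6, against 8.79 to 8.89 CPM in the other 3 granulosa-rich treatment libraries. CASP9 was at 0 CPM in treatment replicate 5, against 1.88 to 2.42 CPM, and XIAP was at 12.6 CPM in that library, against 88.4 to 126 CPM. Treatment replicate 5 was also the library with the fewest features. GADD45B was at 130 CPM in control replicate 1, against 70.7 to 74.4 CPM in the other 3 leukocyte-rich control libraries.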

How the results depend on the processing

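No listed gene passed in any fit under any alternative run. Over 396 repeats of the 21 named log2 fold changes, 392 kept their direction and none was called (lowest adjusted p = 0.390; DESeq2 gave none for BCL2L2 in granulosa-rich libraries), and 4 reversed: DIABLO in all 16 libraries with DESeq2 (-0.10) and without treatment replicate 5 (-0.11, range over left-out libraries -0.11 to 0.50), DIABLO in granulosa-rich libraries without treatment replicate 5 (-0.14, range -0.14 to 0.82), and MCL1 in leukocyte-rich libraries without treatment replicate 3 (-0.014, range -0.014 to 0.52). Over all features DESeq2 called 27 in granulosa-rich libraries and 19 in the interaction fit, where edgeR called 0; the cause was not tested. With at least 10 counts in every library, chosen after seeing the data, 14 listed genes remained. Of these 3, against 5 of 24, were lower in every granulosa-rich library, since BAK1 and BCL2 were not tested. Leaving out single libraries gave 5 to 7, but it can only narrow a range, so the count could not fall. Without treatment replicate 5, treatment replicate 7 was the lowest for 2 genes, against 1, a count that likewise could not fall. Treatment and control share replicate numbers. Of 7 same-numbered pairs 3 had a correlation of deviations above 0.1 (from -0.60 to 0.60), and 0 of 7 treatment libraries correlated best with their own number. The 3 pairs of 1 kind were all positive and the 4 mixed pairs all negative, so these values follow the kind of library and do not settle whether the numbers pair the libraries; no label says that they do. With the replicate block 0 features passed over all 16 libraries and 0 in granulosa-rich libraries, where the block leaves 1 residual degree of freedom; in leukocyte-rich libraries the groups share 1 number and no such fit was made. BAX and APAF1, and BID in granulosa-rich libraries, did not pass the filter on low counts. BAX rested on 1 predicted transcript and APAF1 on 2, and why their counts were low was not tested. With at least 10 counts in every library, named genes with fewer counts in a library (such as CDKN1A and BCL2L2) could not be fitted and have no value.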
